A study of Mus musculus with 36 samples.

Results

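Mouse embryonic stem cells held under hyperosmotic sorbitol were compared with the same cells differentiated with retinoic acid, by bulk 3' RNA sequencing. The comparison took the 3 count columns of the group labelled 300 mM sorbitol (Sorb300) and the 3 count columns of the group given 1 µM retinoic acid (RA), 6 of the 36 libraries of the series. All groups were FUCCI embryonic stem cells of the 129/sv strain, which carry fluorescent cell cycle reporters, in medium with 15% serum, and were lysed after 72 h of treatment. Sorb300 kept LIF, the cytokine that maintains mouse embryonic stem cells, at 1000 U/mL, and RA had none. Sorbitol and retinoic acid thus differed together with LIF, and the share of each in a difference between Sorb300 and RA cannot be told apart. Each group was therefore also set against the untreated group of its own LIF state, which was NS (normal stemness, with LIF, n = 3) for Sorb300 and ND (normal differentiation, without LIF, n = 3) for RA. The labels name 1 line, so nothing here extends to other lines. The 3 libraries of a group are called biological triplicates. The p-values rest on the spread within groups, estimated in 1 fit of all 36 libraries, among them groups not compared here.

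The genes described were the members of 21 lists, which held 576 genes of the 21516 in the tables. Of these lists, 4 were lineage lists (trophoblast, extraembryonic endoderm, mesoderm and neural, 162 genes) and 8 were stress lists (243 genes). The others covered pluripotency, LIF signalling, the retinoid response and cell types that a differentiating culture could hold.

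A hyperosmotic medium draws water out of cells, which answer by taking up and making small organic osmolytes, largely through the transcription factor NFAT5. Wider stress pathways sense other damage: the integrated stress response acts through the factor ATF4 on amino acid genes, the unfolded protein response on chaperones of the endoplasmic reticulum, and HSF1 on cytosolic chaperones. Retinoic acid binds nuclear receptors that sit on response elements of their target genes, among them the Hox clusters, and drives embryonic stem cells out of pluripotency. Trophoblast and primitive (extraembryonic) endoderm are the earliest lineages to part from the embryo proper, and mesoderm and neural cells arise later from the epiblast.

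The 6 libraries held 2267565 to 5524311 counts, against a median of 4822563 over all 36, and 13498 genes passed the low-count filter. The Sorb300 libraries were unlike each other. GC-rich genes (the upper quartile, with over 54.6% G and C in their transcripts) were set against GC-poor ones (the lower quartile, under 44.9%), by the median log2 deviation from the mean of the 4 groups. The difference was -0.37 in Sorb300 library 1, but 1.36 and 1.20 in libraries 2 and 3. The RA libraries lay between -0.47 and -0.34, the NS libraries between -0.36 and 0.35 and the ND libraries between -0.49 and -0.18. Log2 CPM (counts scaled to the library total by TMM) of Sorb300 library 1 correlated with libraries 2 and 3 at r = 0.891 and 0.896 across genes, while libraries 2 and 3 correlated at 0.968. Sorb300 libraries 2 and 3 thus stood apart in a property of the transcripts. Results are given beside the same with the trend on GC content removed from every library (GC correction) and with library 1 as the only Sorb300 library. The latter rests on 1 library, assumed to vary like the other groups, and makes fewer calls.

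**Figure D1:**
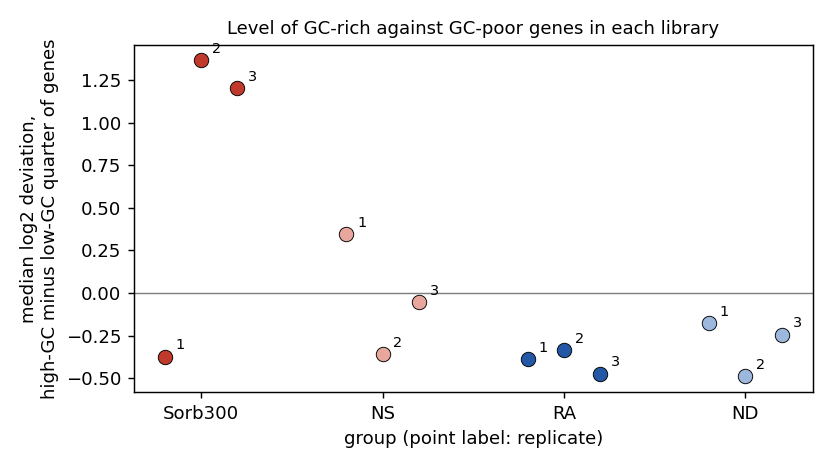
Median log2 deviation of GC-rich minus GC-poor genes (y axis) in each of the 12 libraries of the 4 groups (x axis), 1 point a library with its replicate number. Sorb300 libraries 2 and 3 lie at 1.36 and 1.20, and the other 10 libraries lie between -0.49 and 0.35.

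Between Sorb300 and RA, 5146 of 13498 genes differed at an adjusted p under 0.05 (38.1%). Of these, 2787 were higher in Sorb300 (20.6% of genes tested) and 2359 higher in RA (17.5%). With the GC correction 4746 genes were called, 2338 higher in Sorb300, and with Sorb300 library 1 alone 1746, of which 839 were higher in Sorb300. No gene called in the first count was called in the opposite direction with the GC correction, which kept 69.6% of the calls higher in Sorb300 and 80.4% of those higher in RA. Against the untreated group of the same LIF state, 4102 genes changed in Sorb300 (30.4%; 15.1% higher, 15.2% lower) and 2450 in RA (18.2%; 8.05% higher, 10.1% lower). These comparisons share libraries with the first and are no independent support for it. All took their spread from the fit of all 36 libraries. Fitted from the compared libraries alone, 4118 genes were called for Sorb300 against RA, 2284 for Sorb300 against NS and 4072 for RA against ND. So many genes were called that the share of a list is read here against these percentages.

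**Figure D2:**
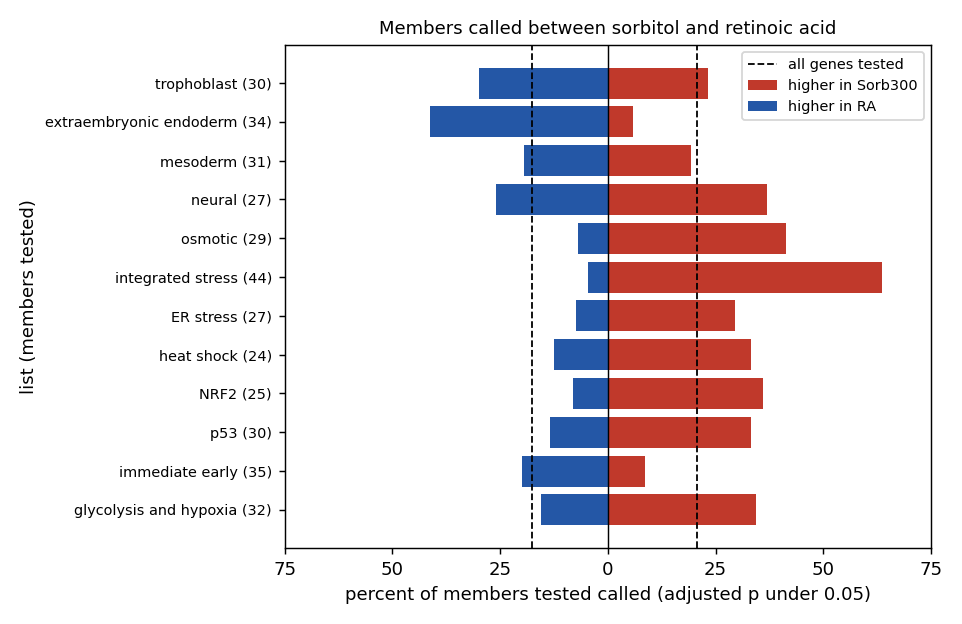
Percent of the tested members of each lineage and stress list (y axis, number tested in parentheses) that were higher in Sorb300 (red, to the right) or higher in RA (blue, to the left) at an adjusted p under 0.05. Dashed lines mark all genes tested, 20.6% and 17.5%. The integrated stress list reaches furthest to the right at 63.6%, and the extraembryonic endoderm list furthest to the left at 41.2%.

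Trophoblast genes split between the treatments, with Eomes, Hand1, Lgals3, Sox15 and Ascl2 higher under sorbitol and Igf2, Peg10, Krt8, Krt18 and Ets2 higher under retinoic acid. Of 40 listed genes 35 were in the tables and 30 were tested, of which 7 were higher in Sorb300 (23.3%) and 9 higher in RA (30.0%). The median log2 difference was -0.65, against 0.01 over all genes. The summed level of the list was 2301 to 3656 CPM in Sorb300 and 5117 to 7686 CPM in RA. With the GC correction the counts were 7 and 12, and with Sorb300 library 1 alone 5 and 8, and without RA library 1 those higher in RA were 5. Against the untreated groups, 15 members rose in Sorb300 (15.1% of all genes did), and 21 rose and 3 fell in RA (8.05% and 10.1%). Members thus rose in both groups against their own references. In bulk RNA, more cells of a type and more RNA of its genes per cell cannot be told apart.

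Eomes, a T-box factor of early trophoblast and of mesendoderm, measured 25.7, 20.6 and 15.2 CPM in the Sorb300 libraries and 4.55, 2.3 and 3.34 CPM in RA. Every Sorb300 library exceeded every RA library (log2 difference 2.56, SE 0.59, adjusted p = 7.37e-04). NS lay at 0.497 to 1.72 CPM and ND at 4.62 to 16.3 CPM, so that Eomes rose under sorbitol (log2 difference 4.10, SE 0.67, adjusted p = 2.29e-05) and fell under retinoic acid (log2 difference -1.63, SE 0.58, adjusted p = 0.0438). The difference between those effects was itself past the threshold (log2 difference 5.73, SE 0.88, adjusted p = 2.44e-05). Hand1, a bHLH factor of trophoblast giant cells, stood at 103, 198 and 239 CPM in Sorb300 and 44.3, 43.7 and 17.6 CPM in RA. The groups did not overlap (log2 difference 2.36, SE 0.48, adjusted p = 2.06e-04), yet Hand1 rose in both against their references, NS at 5.32 to 12.7 CPM and ND at 3.61 to 4.51 CPM. Lgals3, which encodes galectin-3, had 242, 498 and 641 CPM in Sorb300 and 49.2, 42.7 and 28.9 CPM in RA. All Sorb300 values lay above the RA values (log2 difference 3.51, SE 0.48, adjusted p = 1.05e-06). Sox15, a SOX factor of trophoblast progenitors, followed with 11.2, 18.9 and 19.8 CPM against 1.1, 0.658 and 1.31 CPM. The separation was complete (log2 difference 3.90, SE 0.43, adjusted p = 1.09e-08), but its rise against NS was not called (0.41 on the log2 scale), and RA was below ND (-2.77). Ascl2, required for spongiotrophoblast, had 31.6, 74.9 and 88.2 CPM in Sorb300 and 29.7, 29.3 and 10.6 CPM in RA. Its lowest Sorb300 value came from library 1 and was only just above the highest RA value (log2 difference 1.49, SE 0.37, adjusted p = 0.00153). With Sorb300 library 1 alone neither Hand1 nor Ascl2 was called (log2 differences 1.46 and 0.36).

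Retinoic acid cells held more RNA of the insulin-like growth factor gene Igf2, an imprinted growth factor abundant in placenta, with 2404, 1488 and 1361 CPM against 365, 263 and 187 CPM in Sorb300. No value overlapped (log2 difference -2.69, SE 0.46, adjusted p = 2.91e-05), although Igf2 rose in Sorb300 too (log2 difference 1.79, SE 0.45, adjusted p = 0.0029). Peg10, an imprinted retrotransposon-derived gene needed for the placenta, showed the same order, with 1126, 1366 and 1378 CPM in RA and 309, 292 and 385 CPM in Sorb300. Again the groups were apart (log2 difference -1.97, SE 0.32, adjusted p = 7.69e-06). Krt18, a keratin of simple epithelia, reached 1033, 678 and 579 CPM in RA and 103, 276 and 408 CPM in Sorb300, with library 1 lowest. Its partner Krt8 had 583, 307 and 277 CPM in RA and 47.6, 147 and 226 CPM in Sorb300. Neither keratin overlapped between the groups (log2 differences -1.55 and -1.48, adjusted p = 9.30e-04 and 0.00776), and without RA library 1 the call of Krt8 was lost (adjusted p = 0.0705). Ets2, an ETS factor of trophoblast stem cells, measured 91.2, 102 and 69.5 CPM in RA and 31.1, 34.9 and 42.7 CPM in Sorb300. It did not overlap either (log2 difference -1.28, SE 0.23, adjusted p = 3.16e-05). Fgfr2, the receptor through which FGF4 maintains trophoblast stem cells, had 34.4, 27.3 and 30.1 CPM in RA and 12.3, 1.7 and 3.68 CPM in Sorb300, where library 1 was highest. The difference was called over the 3 libraries (log2 difference -2.31, SE 0.64, adjusted p = 0.00486) and not with library 1 alone (-1.42).

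Gata3 and Cdx2, which specify trophectoderm, were not called between the treatments. Gata3 had 50.9, 61.3 and 92.4 CPM in Sorb300 and 66, 47.7 and 65.9 CPM in RA, overlapping ranges (log2 difference 0.18, SE 0.53, adjusted p = 0.816). Both stood above NS (4.32 to 5.17 CPM) and ND (1.37 to 5.2 CPM), with called rises of 3.83 and 4.38 on the log2 scale. Cdx2 had 6.43, 11.9 and 12.9 CPM in Sorb300 and 2.67, 1.64 and 3.05 CPM in RA, low values that did not overlap but were not called (log2 difference 2.04, SE 0.93, adjusted p = 0.0808). Cdx2 rose against NS (log2 difference 4.03, SE 1.08, adjusted p = 0.00469). Gcm1, a factor of labyrinth trophoblast, and Tead4, which acts before Cdx2, rose in both groups against their references (3.62 and 2.50 in Sorb300, 3.29 and 1.83 in RA). Neither was called between Sorb300 and RA (0.62 and 1.02). Elf5, which fixes trophoblast fate, had 0.184, 2.18 and 0 CPM in Sorb300 and no count in RA and was not tested, like Tpbpa and the prolactin family genes Prl2c2, Prl3b1 and Prl3d1.

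Extraembryonic endoderm genes that were called were mostly higher with retinoic acid. Of 34 members tested out of 40 in the tables, 14 were higher in RA (41.2%) and 2 higher in Sorb300 (5.88%). The median log2 difference was -1.63. The summed level of the list did not part the groups, at 3262 to 5893 CPM in Sorb300 and 3689 to 5470 CPM in RA. The counts became 16 and 0 with the GC correction, and 6 and 0 with Sorb300 library 1 alone. Leaving out either Sorb300 library 2 or RA library 1 left 6 members higher in RA. In RA 26 members rose against ND (76.5%, against 8.05% of all genes). In Sorb300 10 rose against NS (29.4%, against 15.1%) and 2 fell (5.88%, against 15.2%). The rises in Sorb300 were 5 without NS library 2 and 6 without NS library 3 or Sorb300 library 3. The difference of the effects was called for 9 members in the direction of RA (26.5%, against 7.47% of all genes), and for 4 or 5 members without Sorb300 library 2, RA library 1 or 2 or ND library 2.

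Ttr, which encodes the carrier transthyretin, had 39.9, 35.8 and 9.02 CPM in RA and 0, 0.242 and 0.459 CPM in Sorb300. RA was higher in every library (log2 difference -7.08, SE 1.15, adjusted p = 1.09e-04), and NS had no count. Rbp4, the plasma carrier of retinol, had 31.7, 15.5 and 8.73 CPM in RA and 1.47, 5.09 and 2.76 CPM in Sorb300. It rose against ND and fell against NS (1.57 and -1.98 on the log2 scale, adjusted p = 0.0168 and 0.00367). Stra6, the cell surface receptor of that carrier, had 17.6, 17.4 and 12.9 CPM in RA and 0.735, 1.45 and 2.3 CPM in Sorb300. The groups lay apart (log2 difference -3.49, SE 0.72, adjusted p = 2.51e-04). Stra6 is on the retinoid response list too, and is not a marker of endoderm alone. Dab2, an endocytic adaptor, had 116, 129 and 64.3 CPM in RA and 26.7, 21.6 and 23.4 CPM in Sorb300. It was higher in RA (log2 difference -2.10, SE 0.29, adjusted p = 7.66e-07) and rose in both groups against their references. Lamb1, the laminin beta-1 chain of basement membrane, measured 445, 393 and 294 CPM in RA and 57.2, 52.8 and 70.3 CPM in Sorb300. NS and ND lay between (119.5 to 184 and 151 to 207 CPM), with RA above ND and Sorb300 below NS (1.15 and -1.28, both called).

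The transcription factors that found primitive endoderm were less clear. Gata6 had 75.1, 40.4 and 34.3 CPM in RA and 20.8, 13.6 and 28 CPM in Sorb300, which did not overlap but were not called (log2 difference -1.28, SE 0.66, adjusted p = 0.128). Gata4 had 24, 26.3 and 8.58 CPM in RA and 3.31, 3.88 and 12.9 CPM in Sorb300, and Sox17 33.1, 16.4 and 8.87 against 0.919, 3.15 and 10.6 CPM. In both genes Sorb300 library 3 reached into the RA range (adjusted p = 0.070 and 0.0574). With the GC correction all 3 factors were called higher in RA (log2 differences -1.73, -2.20 and -2.49). Without Sorb300 library 3 the calls of Gata4 and Sox17 were made as well (adjusted p = 0.0202 and 0.0157), and Gata4 also without RA library 3 (adjusted p = 0.046). Foxa2, a forkhead factor of endoderm, had 73.7, 52.3 and 16.6 CPM in RA and 2.76, 4.36 and 15.2 CPM in Sorb300, and was called (log2 difference -2.75, SE 0.89, adjusted p = 0.0143). That call was lost without Sorb300 library 1 or 2 or RA library 1 (adjusted p = 0.0578, 0.0666 and 0.0926), and under the DESeq2 Wald test (adjusted p = 0.0804). Foxa2 rose in both groups against their references (3.85 and 5.04, adjusted p = 0.0129 and 4.84e-04). Sparc, a matrix glycoprotein made in large amounts by parietal endoderm, likewise rose in both (1.44 and 1.64), with 1877 to 3729 CPM in Sorb300 and 1735 to 2962 CPM in RA. Amn, the partner of cubilin, and Lefty1, a Nodal inhibitor of anterior visceral endoderm, were the 2 members higher in Sorb300 (1.33 and 2.31), and neither was called with the GC correction (adjusted p = 0.167 and 0.0634). Both calls were also lost without RA library 3 or Sorb300 library 2, where adjusted p was 0.094 and 0.101 for Amn and 0.0749 and 0.0928 for Lefty1, and Amn lost its call without RA library 1 or Sorb300 library 3 too (adjusted p = 0.089 and 0.0705).

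Mesoderm genes were evenly divided in number. Of 31 tested out of 41 in the tables, 6 were higher in each group (19.4% of the members). This was close to the 20.6% and 17.5% of all genes, and the median log2 difference was 0.06. The summed level of the list was 827 to 946 CPM in Sorb300 and 255 to 308 CPM in RA. Most of the sum in Sorb300 came from Tbx3, whose levels are given below. With the GC correction 6 were higher in Sorb300 and 8 in RA, and with Sorb300 library 1 alone 5 and 1. Among those higher in Sorb300 were Evx1, a homeobox gene of the posterior primitive streak, Tcf15, a bHLH factor also found in epiblast-primed stem cells, Tbx3, which also serves naive pluripotency, Bmp4 and Eomes. Among those higher in RA were Osr1, Tbx2, Hand2, Foxf1a and Twist1, factors of intermediate, lateral plate and cranial mesenchyme.

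Evx1 had 2.94, 10.2 and 17 CPM in Sorb300 and no count in any RA or NS library. It was at least 43.9-fold higher than in RA and at least 29.9-fold higher than in NS, against 3 counts over the group. The quasi-likelihood test called it (adjusted p = 5.45e-04), and the DESeq2 Wald test did not (adjusted p = 0.377). Tbx3 measured 566, 562 and 562 CPM in Sorb300 and 68.6, 74 and 87.1 CPM in RA, with nearly equal values inside each group (log2 difference 2.88, SE 0.37, adjusted p = 3.13e-07). Tbx3 rose in both groups against their references (2.31 and 1.71). Bmp4, a ligand that patterns mesoderm and induces trophoblast genes in stem cells, had 243, 121 and 117 CPM in Sorb300 and 64.1, 26.6 and 31.6 CPM in RA. It was higher in all Sorb300 libraries (log2 difference 1.97, SE 0.34, adjusted p = 2.32e-05), rose against NS (1.89) and was not called between RA and ND (0.40). Tcf15 had 54, 85.1 and 49.6 CPM in Sorb300 and 7.22, 10.2 and 7.27 CPM in RA (log2 difference 2.96, SE 0.41, adjusted p = 8.06e-07). Sorb300 was close to NS (46.3 to 71.5 CPM, 0.13 on the log2 scale, not called), and RA was below ND (-2.18).

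Osr1, a zinc finger factor of intermediate mesoderm, had 29.8, 22.7 and 10.9 CPM in RA and 0.551, 0 and 0 CPM in Sorb300. Neither untreated group had a count, so that RA was at least 125-fold above ND. Tbx2 had 11.8, 10.9 and 12.1 CPM in RA against 0.551, 0 and 2.3 CPM, and Hand2 20.6, 14.1 and 3.93 against 0.184, 2.42 and 0 CPM. These 3 were higher in RA in every library (log2 differences -6.32, -3.82 and -3.76). Twist1, a bHLH factor of mesenchyme, had 21, 9.86 and 14.5 CPM in RA and 3.13, 0.242 and 2.3 CPM in Sorb300 (log2 difference -2.99, SE 0.77, adjusted p = 0.00221). Foxf1a, a forkhead factor of splanchnic mesoderm, had 8.17, 5.26 and 3.64 CPM and 0.919, 0 and 0 CPM (log2 difference -3.81, SE 1.17, adjusted p = 0.00997), and its call was lost without Sorb300 library 2 (adjusted p = 0.0576). The DESeq2 Wald test called neither Osr1 nor Hand2 (adjusted p = 0.462 and 0.378), the call of Hand2 was lost without RA library 1 (adjusted p = 0.0555), and with Sorb300 library 1 alone only Osr1 of these 5 genes was called. T, the brachyury gene of the primitive streak, had 1.1, 0.485 and 0.459 CPM in Sorb300 and 0, 0 and 0.291 CPM in RA and was not called (log2 difference 2.37, SE 1.22, adjusted p = 0.124). Mixl1 and Mesp1 were too low to be tested.

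Markers of other cell types are given beside the mesoderm genes. Of all genes tested 17.5% were higher in RA and 20.6% higher in Sorb300. In the fibroblast list 13 of 20 tested members were higher in RA (65.0%) and 3 in Sorb300 (15.0%). Its summed level was 1439 to 1619 CPM in RA and 818 to 941 CPM in Sorb300. Its members include Col1a2, Col1a1 and Col3a1, the fibrillar collagens, Mmp2, a matrix metalloproteinase, and the contractile gene Tagln, all higher in RA (log2 differences -5.79, -2.59, -5.35, -2.64 and -3.51). Dcn, Lum and Postn had no count in Sorb300, and every member had counts in RA. Of the muscle list 3 of 12 tested members were higher in RA, and its summed level was 114 to 161 CPM in RA and 58.8 to 68.5 CPM in Sorb300. Myf5 had no count in either group. Of the blood and endothelium list 3 of 9 tested members were higher in Sorb300 (33.3%) and 1 in RA (11.1%). Its sums were 130.5 to 185 CPM in Sorb300 and 58.1 to 60.3 CPM in RA. The leukocyte gene Ptprc had no count in either group. Of the definitive endoderm list 4 of 16 were higher in RA and 3 in Sorb300, with sums of 253 to 465 CPM and 465 to 759 CPM. Without Sorb300 library 1, 5 muscle and 2 definitive endoderm members were higher in RA, and without RA library 1 or Sorb300 library 2, 1 blood and endothelium member was higher in Sorb300. Against ND, 11 fibroblast (55.0%), 6 definitive endoderm (37.5%), 0 muscle and 0 blood and endothelium members rose in RA (8.05% of all genes did). In the same order 1, 3, 1 and 1 fell (10.1% of all genes did). Against NS, 1, 3, 0 and 0 rose in Sorb300 (15.1% of all genes did), and 4, 2, 3 and 0 fell (15.2%). The blood and endothelium list summed to 122 to 149 CPM in NS. The part of these cell types in the lineage results was not tested.

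Neural genes were called in both directions. Of 47 in the tables only 27 were tested, of which 10 were higher in Sorb300 (37.0%) and 7 in RA (25.9%). The median log2 difference was 0.57. The summed level of the list was 1143 to 1430 CPM in Sorb300 and 504 to 732 CPM in RA. The counts were 8 and 8 with the GC correction and 5 and 3 with Sorb300 library 1 alone. Most of the proneural factors, among them Neurog1 and Neurog2, were among the 20 genes that did not pass the filter. Against the untreated groups 2 members rose (7.41%) and 4 fell (14.8%) in Sorb300, where 15.1% and 15.2% of all genes did. In RA 5 rose (18.5%, against 8.05%) and 6 fell (22.2%, against 10.1%), and without RA library 2 the rises were 3.

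Tubb3, the neuronal class of beta-tubulin, had 104, 313 and 306 CPM in Sorb300 and 38.3, 23.3 and 7.13 CPM in RA. Library 1 was the lowest Sorb300 library and still above all RA libraries (log2 difference 3.39, SE 0.45, adjusted p = 4.67e-07), and Tubb3 rose against NS (2.06). Mapt, the microtubule protein tau, had 80.1, 138 and 112 CPM in Sorb300 and 24.2, 17.8 and 28.1 CPM in RA. It was higher in Sorb300 (log2 difference 2.22, SE 0.33, adjusted p = 1.90e-06) and rose in both groups against their references (1.85 and 1.49). Stmn2, a regulator of microtubules in axons, had 383, 411 and 355 CPM in Sorb300 and 49.2, 71.7 and 46.8 CPM in RA (log2 difference 2.78, SE 0.31, adjusted p = 1.33e-08). NS held as much (276 to 584 CPM), the Sorb300 difference from NS was not called, and RA was below ND (-1.26). Nefl, the light neurofilament chain, and Nkx6-2, a homeobox factor, were higher in Sorb300 by 1.96 and 2.15 on the log2 scale, and neither was called with library 1 alone.

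Irx3, an Iroquois homeobox gene of the neural tube and of mesoderm, had 64.2, 65.8 and 33.6 CPM in RA and 8.09, 10.2 and 8.27 CPM in Sorb300. RA was higher in each library (log2 difference -2.62, SE 0.50, adjusted p = 8.27e-05), and Sorb300 was not called against NS (adjusted p = 0.998). Ncam1, a neural cell adhesion molecule found in many embryonic tissues, had 77.3, 89.8 and 96.6 CPM in RA and 27.6, 20.1 and 13.3 CPM in Sorb300. It was higher in RA (log2 difference -2.08, SE 0.30, adjusted p = 1.17e-06). Gap43, a growth cone protein, and Nes, the intermediate filament of neural progenitors, were not called between RA and ND (-0.36 and -0.35), and fell in Sorb300 against NS (-2.79 and -1.69, adjusted p = 1.25e-05 and 0.0341). Their levels were 6.07, 4.6 and 10.1 CPM of Gap43 and 7.17, 5.82 and 6.43 CPM of Nes in Sorb300. RA had 33.9, 50.0 and 16.7 CPM of Gap43 and 38.8, 29.6 and 24 CPM of Nes, above all Sorb300 values, and Nes was not called with Sorb300 library 1 alone (-2.20). Pax6, a factor of neural progenitors, was low at 5.5, 3.29 and 2.62 CPM in RA and 0.368, 0.485 and 0 CPM in Sorb300 (log2 difference -3.44, SE 1.19, adjusted p = 0.0208), and lost its call without Sorb300 library 1 or 3 or RA library 1 (adjusted p = 0.0503, 0.0703 and 0.0699). Sox1, the earliest neural SOX gene, was not called (log2 difference -1.03, SE 1.00, adjusted p = 0.436).

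**Figure D3:**
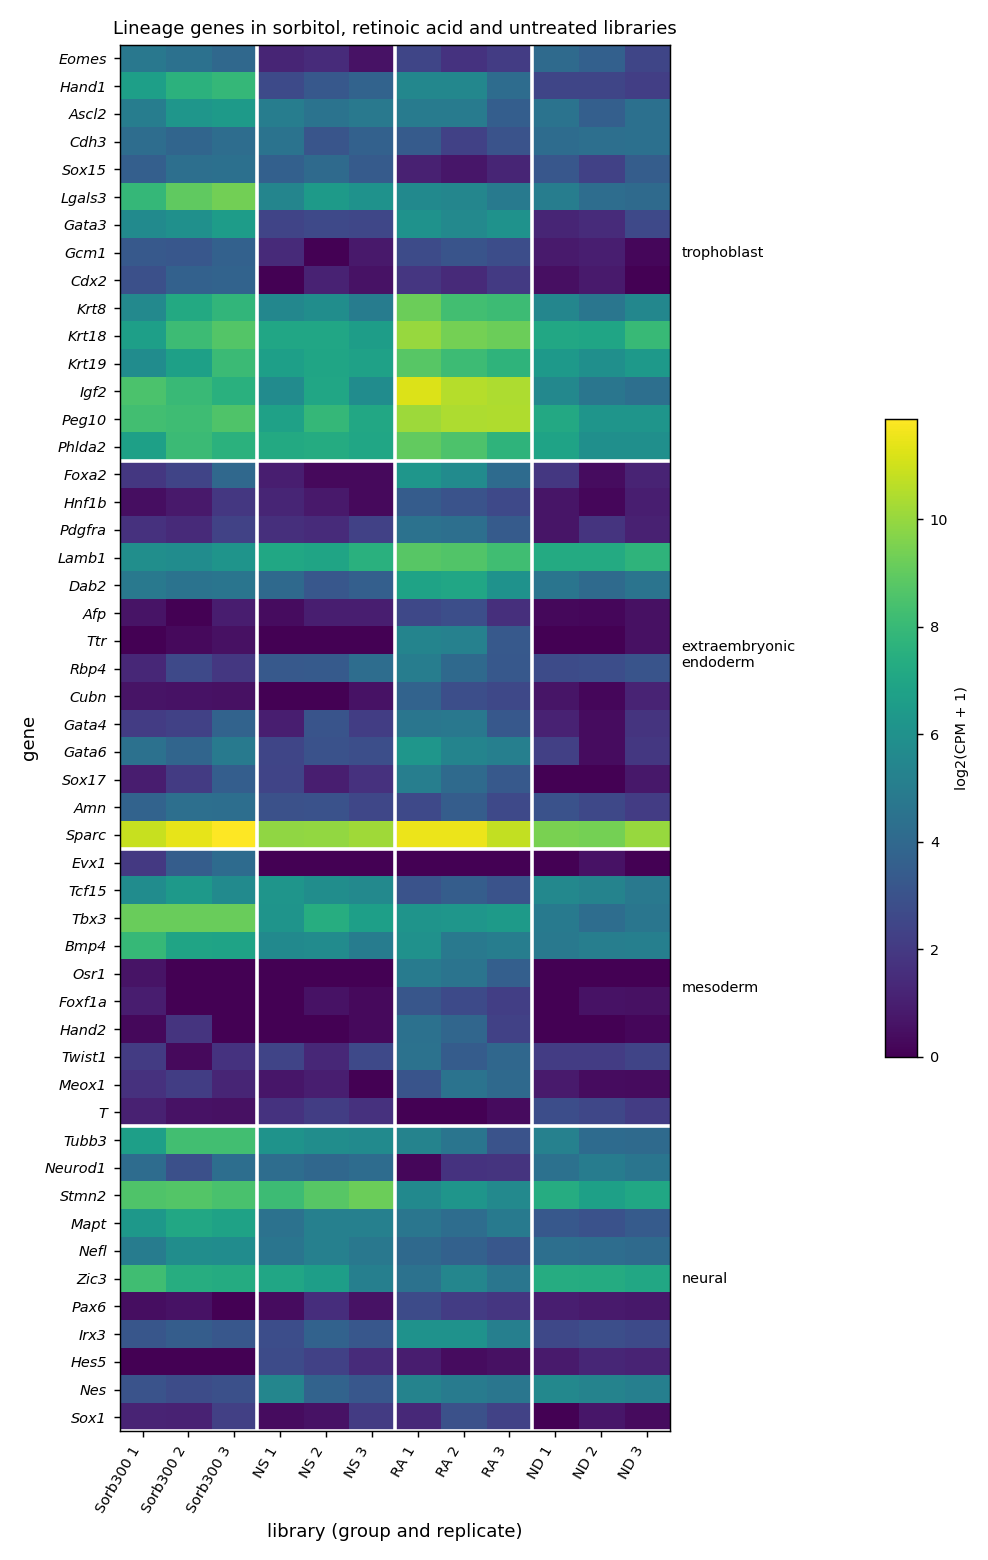
Level of lineage genes as log2(CPM + 1) (colour) in each of the 12 libraries (x axis), genes grouped by list (y axis). Eomes, Hand1, Tbx3 and Tubb3 are brightest in the Sorb300 columns, and Krt8, Igf2, Ttr, Lamb1, Osr1 and Irx3 in the RA columns. Gata3 is bright in both and dark in NS and ND.

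Osmotic stress genes were higher in Sorb300 in 12 of 29 tested members (41.4%) and higher in RA in 2 (6.90%), with a median log2 difference of 0.51. The GC correction gave 11 and 3, and Sorb300 library 1 alone 7 and 1. Against NS, 9 members rose (31.0%, against 15.1% of all genes) and 2 fell (6.90%, against 15.2%) in Sorb300. In RA 2 rose (6.90%, against 8.05%) and 5 fell (17.2%, against 10.1%) against ND. The rises against NS were 5 without NS library 3, and leaving out any one RA or ND library left 2 or 3 falls in RA. Without Sorb300 library 1 the members higher in RA than in Sorb300 were 4. Slc6a12, the betaine transporter and a known NFAT5 target, had 6.8, 12.8 and 19.8 CPM in Sorb300 and 0.942, 0 and 0 CPM in RA. It had a higher level in every Sorb300 library (log2 difference 5.11, SE 1.28, adjusted p = 0.00232), and NS was at 0 to 0.332 CPM. It was not called with library 1 alone (4.10). Akr1b3, aldose reductase, which makes sorbitol from glucose, had 16.9, 34.2 and 24.4 CPM in Sorb300 and 4.55, 2.96 and 4.51 CPM in RA. The groups lay apart (log2 difference 2.61, SE 0.47, adjusted p = 3.86e-05), and Akr1b3 rose against NS (1.26). Its relative Akr1b8 was also higher in Sorb300 (1.95), though not with library 1 alone (1.64).

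Slc6a6, the taurine transporter, measured 398, 341 and 365 CPM in Sorb300 and 196, 176 and 217 CPM in RA. The difference was modest and without overlap (log2 difference 0.91, SE 0.20, adjusted p = 6.25e-04), and Slc6a6 rose against NS (log2 difference 0.67, SE 0.20, adjusted p = 0.0118). Slc38a2, a neutral amino acid transporter induced by hypertonicity, had 958, 370.0 and 429 CPM in Sorb300 and 237, 204 and 188 CPM in RA. The highest value came from library 1 (log2 difference 1.48, SE 0.44, adjusted p = 0.0083), without which the call was lost (adjusted p = 0.095). Hsph1, a chaperone of the HSP110 family, had 187, 147 and 196 CPM in Sorb300 and 88.1, 47.7 and 36.9 CPM in RA. It stood higher in all Sorb300 libraries (log2 difference 1.61, SE 0.29, adjusted p = 3.42e-05) and rose against NS (1.93). Pnpla6, a lysophospholipase that releases the osmolyte glycerophosphocholine, and Slc7a5, a large neutral amino acid transporter, were higher in Sorb300 by 1.79 and 1.99 on the log2 scale. Pnpla6 rose against NS (1.47), and Slc7a5 did not change there by the test but fell in RA against ND (-1.49).

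The central osmotic genes Nfat5 and Slc5a3 were not called. Slc5a3, the myo-inositol transporter, had 36.9, 8.72 and 13.8 CPM in Sorb300 and 17.7, 12.8 and 24.1 CPM in RA. Library 1 was the highest of all and libraries 2 and 3 lay within or below the RA range (log2 difference 0.13, SE 0.48, adjusted p = 0.853). Nfat5 itself had 21.1, 13.1 and 13.3 CPM in Sorb300 and 14.8, 9.54 and 21.1 CPM in RA, fully overlapping (log2 difference 0.06, SE 0.48, adjusted p = 0.931). Higher in RA were Stk39, a kinase that activates the NKCC1 transporter, with 23.9, 20.7 and 23.8 CPM against 2.39, 1.45 and 2.76 CPM, and Hspa4l. Stk39 did not differ between RA and ND by the test (-0.21) and fell in Sorb300 (log2 difference -2.44, SE 0.50, adjusted p = 3.43e-04). Hspa4l was higher in RA by -1.83 on the log2 scale, and was not called with Sorb300 library 1 alone (-0.91).

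Integrated stress response genes were higher in Sorb300 than in RA. Of 44 tested members 28 were higher in Sorb300 (63.6%) and 2 higher in RA, with a median log2 difference of 0.96. The counts were 25 and 5 with the GC correction, and 10 and 3 with Sorb300 library 1 alone. In Sorb300 6 members rose (13.6%) and 17 fell (38.6%) against NS, where 15.1% and 15.2% of all genes did. In RA 1 rose (2.27%) and 28 fell (63.6%) against ND, where 8.05% and 10.1% of all genes did. The summed level of the list was 5127 to 6057 CPM in Sorb300, 2821 to 2947 CPM in RA, 6207 to 9278 CPM in NS and 5821 to 6600 CPM in ND. The summed level was thus lowest in RA, and in Sorb300 below that of NS. The fall in RA covered 17 members without ND library 1, and that in Sorb300 11 without library 2. The difference of the effects was called toward Sorb300 for 7 members (15.9%, against 8.91% of all genes). That count was 18 without Sorb300 library 1 and 4 without Sorb300 library 2, RA library 3, ND library 1 or NS library 2 or 3.

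Asns, asparagine synthetase, had 342, 433 and 388 CPM in Sorb300 and 106, 154 and 158 CPM in RA. Sorb300 was higher in every library (log2 difference 1.48, SE 0.20, adjusted p = 3.48e-07), NS had 461, 376 and 476 CPM, and RA fell against ND (log2 difference -0.77, SE 0.19, adjusted p = 0.00419). The Asns promoter held a CARE (C/EBP-ATF response element, the letters TGATGNAA, searched on both strands), the element through which ATF4 acts. It is shown because the match lies just before the start of the gene. The match is in capitals, at -23 to -16 from the start, in the RefSeq promoter window at chr6:7693160-7693459, minus strand, GRCm38.p6.
Asns: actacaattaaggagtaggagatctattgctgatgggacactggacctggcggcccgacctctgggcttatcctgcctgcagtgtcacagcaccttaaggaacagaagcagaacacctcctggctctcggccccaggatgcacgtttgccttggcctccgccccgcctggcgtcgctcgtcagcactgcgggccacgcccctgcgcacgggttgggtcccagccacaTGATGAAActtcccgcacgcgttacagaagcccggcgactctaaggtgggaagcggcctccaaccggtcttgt
Such a match was found in 15 of 37 list members with a promoter window (40.5%) and in 3.97% of 32851 promoters of the same length. A member counted if any of its windows matched, while the 32851 were counted singly, so these shares are unlike measures. Of the 15, 6 were higher in Sorb300, 1 higher in RA, 6 not called and 2 not tested. A match is a description of the letters and not a measured site.

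Cth, cystathionine gamma-lyase, had 72.1, 39 and 46.4 CPM in Sorb300 and 3.46, 4.93 and 6.25 CPM in RA. Its partner Cbs, cystathionine beta-synthase, had 34.9, 62.8 and 74.9 CPM and 4.24, 3.62 and 7.71 CPM. Neither gene overlapped (log2 differences 3.42 and 3.41, adjusted p = 3.08e-08 and 1.01e-08), and both fell in RA against ND (-1.88 and -3.00). Slc7a3, a transporter of arginine and lysine, had 105, 165 and 116 CPM in Sorb300 and 6.44, 12.8 and 10.2 CPM in RA. Its level was higher in Sorb300 (log2 difference 3.74, SE 0.37, adjusted p = 1.13e-09), and so was its effect against the untreated group (log2 difference 3.71, SE 0.48, adjusted p = 1.49e-06). Mars, methionyl-tRNA synthetase, was higher in Sorb300 by 1.37 on the log2 scale. Trib3, a pseudokinase that feeds back on ATF4, had 21, 50.9 and 45.5 CPM in Sorb300 and 8.48, 9.21 and 9.6 CPM in RA (log2 difference 2.09, SE 0.42, adjusted p = 1.51e-04), and was not called with library 1 alone (1.10).

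Acute markers of the pathway were not called between the groups. Ddit3, which encodes the pro-apoptotic factor CHOP, had 6.07, 6.06 and 6.43 CPM in Sorb300 and 7.54, 5.59 and 13.2 CPM in RA, overlapping (log2 difference -0.55, SE 1.04, adjusted p = 0.706). In NS it was far higher at 31.9, 62 and 180.0 CPM, and Sorb300 fell against it (log2 difference -3.89, SE 1.04, adjusted p = 0.00603). Chac1, which degrades glutathione, had 1.29, 1.94 and 5.05 CPM in Sorb300 and 0.628, 2.3 and 2.04 CPM in RA and was not called (log2 difference 0.64, SE 1.20, adjusted p = 0.704). Atf3, an early stress factor, had 2.39, 12.1 and 29.9 CPM in Sorb300, the widest spread of these genes, and 20.4, 18.1 and 20.4 CPM in RA. It was not called between them (log2 difference -0.46, SE 0.64, adjusted p = 0.60) and rose in both groups against their references (2.27 and 2.50). Vldlr, a lipoprotein receptor, and Cebpg, a partner of ATF4, were higher in RA (-3.76 and -1.22 on the log2 scale). Both fell in Sorb300 against NS (-2.94 and -0.96).

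Genes of the endoplasmic reticulum were higher in Sorb300 in 8 of 27 members (29.6%) and in RA in 2 (7.41%), which the GC correction reduced to 5 and 1 and Sorb300 library 1 alone to 1 and 0. Over all genes tested 20.6% were higher in Sorb300 and 17.5% in RA. Without Sorb300 library 2 or RA library 3, 5 members were higher in Sorb300, and without Sorb300 library 1, 6 members were higher in RA. Derl3, a component of the retrotranslocation machinery, had 24.1, 33.9 and 27.1 CPM in Sorb300 and 1.57, 2.96 and 5.09 CPM in RA. All 3 Sorb300 libraries were higher (log2 difference 3.12, SE 0.56, adjusted p = 3.90e-05), and Derl3 rose against NS (1.52). Its promoter held an ERSE (endoplasmic reticulum stress element, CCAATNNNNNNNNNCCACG searched on both strands). Of 21 members with a promoter window 9 held it in any of their windows (42.9%), and 0.119% of 32851 promoters counted singly did. Derl3 is shown as the first gene of the list named here. The match is in capitals at -156 to -138 from the start and reads on the opposite strand, in the window at chr10:75893148-75893447, plus strand, GRCm38.p6.
Derl3: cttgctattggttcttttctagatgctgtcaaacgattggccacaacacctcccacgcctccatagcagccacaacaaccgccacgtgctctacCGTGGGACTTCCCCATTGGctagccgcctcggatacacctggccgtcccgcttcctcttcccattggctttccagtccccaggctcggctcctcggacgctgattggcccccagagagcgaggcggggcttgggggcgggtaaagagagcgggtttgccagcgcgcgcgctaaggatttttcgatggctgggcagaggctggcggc
Of the 9 members with the element 3 were higher in Sorb300, 1 higher in RA and 5 not called. Calr, the chaperone calreticulin, had 793, 1467 and 1468 CPM in Sorb300 and 520.0, 379 and 398 CPM in RA. Libraries 2 and 3 were almost equal and library 1 lower, all above RA (log2 difference 1.52, SE 0.34, adjusted p = 6.55e-04). Hyou1 and Creld2, targets of the unfolded protein response, were likewise higher (1.64 and 1.49), and neither these nor Calr were called with library 1 alone. Hspa5, the central chaperone BiP, had 1045, 578 and 688 CPM in Sorb300 and 889, 797 and 503 CPM in RA, overlapping and not called (log2 difference 0.08, SE 0.21, adjusted p = 0.799). Higher in RA was Dnajc3, an inhibitor of the kinase PERK, by -1.37 on the log2 scale, and Edem1 (-0.73), which lost its call with the GC correction and without RA library 3 (adjusted p = 0.0911 and 0.0637).

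Heat shock genes were higher in Sorb300 in 8 of 24 members (33.3%) and in RA in 3 (12.5%), or 5 and 2 without Sorb300 library 2 and 8 and 5 without library 1. Hspb1, the small heat shock protein HSP27, had 804, 1910.3 and 1885 CPM in Sorb300 and 263, 272 and 196 CPM in RA. The separation held in all libraries (log2 difference 2.65, SE 0.50, adjusted p = 1.23e-04), and Hspb1 rose in both groups against their references (2.52 and 1.49). With library 1 alone it was not called (1.62). Cochaperones of HSP90 followed, with Fkbp4, Ahsa1 and Stip1 higher in Sorb300 (1.23, 0.93 and 0.85). None of these was called against NS, and Fkbp4 and Stip1 fell in RA against ND (-1.06 and -0.65). With Sorb300 library 1 alone the list had 1 member higher and 1 lower, and Hsph1 was the one that remained higher. Hspa1b, an inducible HSP70 whose reads can be shared with its near-identical copy, had 29.6, 22.5 and 34.9 CPM in Sorb300 and 13.8, 8.22 and 18.6 CPM in RA, which did not overlap but were not called (log2 difference 1.08, SE 0.46, adjusted p = 0.0622). It rose in both against NS (1.99 to 6.39 CPM) and ND (1.45 to 4.32 CPM), by 2.70 and 2.22 on the log2 scale. Hspb8, another small heat shock protein, was higher in RA with 111, 76 and 85.1 CPM against 26.7, 39.3 and 55.1 CPM (log2 difference -1.19, SE 0.27, adjusted p = 8.04e-04). Hspb8 rose against ND and fell against NS, and the difference of those effects was called (log2 difference -2.08, SE 0.38, adjusted p = 2.59e-04). The GC correction left 10 members higher in Sorb300 and 2 in RA; Hsf2 was the member lost, its difference of -0.66 becoming 0.23, and it also lost its call without RA library 2 or Sorb300 library 2 or 3 (adjusted p = 0.0578, 0.062 and 0.0549).

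Of 25 NRF2 (oxidative stress) genes tested, 9 were higher in Sorb300 (36%) and 2 in RA (8.0%), or 6 and 3 with the GC correction and 2 and 2 with Sorb300 library 1 alone. Those higher in Sorb300 were 5 without Sorb300 library 2, and those higher in RA 5 without library 1. The shares of all genes tested were 20.6% and 17.5%. Against NS, 3 members rose and 5 fell in Sorb300, where 15.1% and 15.2% of all genes did. Against ND, 1 rose and 7 fell in RA, where 8.05% and 10.1% did. The list summed to 5610 to 6354 CPM in Sorb300 and 7578 to 9238 CPM in RA. NS and ND had 7963 to 10809 and 7775 to 9466 CPM. The summed level was thus lowest in Sorb300, unlike the count of called members. Gsta3, a glutathione transferase, had 42.6, 19.9 and 18.8 CPM in Sorb300 and 0.471, 0.986 and 1.89 CPM in RA (log2 difference 4.55, SE 0.74, adjusted p = 1.00e-05). Gsta3 rose against NS (2.87), with the highest value in library 1. Its relative Gsta4 had 382, 539.9 and 510.5 CPM and 93.1, 123 and 167 CPM (log2 difference 1.90, SE 0.26, adjusted p = 4.81e-07). It was close to NS (0.01, not called) and fell in RA (-1.16). Hmox1, heme oxygenase, had 83.5, 166 and 204 CPM in Sorb300 and 50.1, 48.7 and 36.6 CPM in RA. A higher level was found in Sorb300 (log2 difference 1.74, SE 0.38, adjusted p = 4.14e-04), together with Pgd and G6pdx of the pentose phosphate pathway (1.37 and 1.44), and none of these 3 was called with library 1 alone. Nqo1, the standard NRF2 reporter gene, was not called (log2 difference 0.97, SE 0.52, adjusted p = 0.143). The metallothioneins, metal-binding proteins, went the other way. Mt1 had 1289, 1689.7 and 2336 CPM in RA and 269, 295 and 551 CPM in Sorb300, and Mt2 1733, 1826 and 2943 and 413, 535 and 706 CPM. Neither gene overlapped (log2 differences -2.26 and -1.98), and both fell in Sorb300 against NS (-1.48 and -1.25).

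Of 30 p53 genes tested, 10 were higher in Sorb300 (33.3%) and 4 in RA (13.3%), or 8 and 4 with the GC correction and 5 and 1 with library 1 alone. Over all genes tested the shares were 20.6% and 17.5%. Without RA library 2, 6 members were higher in Sorb300, and without Sorb300 library 1, 7 members were higher in RA. Trp53, which encodes p53 itself, had 172, 362 and 378 CPM in Sorb300 and 63.3, 46 and 36.4 CPM in RA. All Sorb300 values lay above those of RA (log2 difference 2.64, SE 0.27, adjusted p = 3.67e-09), Trp53 rose against NS (2.02), and RA was not called against ND (-0.02). Bax, a pro-apoptotic target, had 184, 374 and 350.1 CPM in Sorb300 and 83.6, 96 and 76.1 CPM in RA (log2 difference 1.83, SE 0.27, adjusted p = 1.92e-06), and rose against NS (0.89). The main target genes were not called: Cdkn1a, the inhibitor p21, had 286, 497 and 640.5 CPM in Sorb300 and 365, 317 and 356 CPM in RA, and Mdm2, the ligase for p53, 349.6, 95 and 130.5 and 225, 171 and 225 CPM. In both the Sorb300 libraries enclosed the RA range, with library 1 lowest for Cdkn1a and highest for Mdm2 (adjusted p = 0.155 and 0.804). Without library 1 Cdkn1a was called higher in Sorb300 (0.72, adjusted p = 0.0182) and Mdm2 lower (-0.88, adjusted p = 0.00639). Higher in RA were Rrm2b, a ribonucleotide reductase subunit, and Tap1, a peptide transporter (-2.19 and -1.01). The stress gene Sesn2, a regulator of mTORC1, rose against NS (2.12) and was higher in Sorb300 than in RA (1.70), though not with library 1 alone (0.85).

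Immediate early genes were higher in RA in 7 of 35 tested (17.5% of all genes were) and higher in Sorb300 in 3 (8.57%, against 20.6%), or 8 and 3 with the GC correction and 5 and 1 with library 1 alone, and without RA library 3 those higher in RA were 4. Jun, a subunit of the AP-1 factor, had 95, 98 and 94.4 CPM in RA and 26.7, 35.4 and 40.0 CPM in Sorb300. It was raised in all RA libraries (log2 difference -1.50, SE 0.31, adjusted p = 2.69e-04) and rose against ND (1.30). Klf6 had 339, 290.0 and 269.8 CPM in RA and 113, 56.7 and 105 CPM in Sorb300 (log2 difference -1.71, SE 0.23, adjusted p = 3.89e-07), and neither group was called against its reference. Ier5 was higher in RA as well (-1.74). Klf2, which is also a naive pluripotency factor, had 474, 736 and 615 CPM in Sorb300 and 52.8, 88.4 and 90.6 CPM in RA (log2 difference 2.98, SE 0.41, adjusted p = 1.09e-06). Csrnp1, a nuclear protein induced by axin, rose in both groups against their references (2.26 and 1.28) and was higher in Sorb300 (1.37).

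In the combined list of glycolysis and hypoxia genes, of 32 tested members 11 were higher in Sorb300 (34.4%) and 5 in RA (15.6%), or 8 and 5 with the GC correction and 4 and 2 with library 1 alone, and those higher in RA were 3 without Sorb300 library 2. Over all genes tested these shares were 20.6% and 17.5%. Against NS, 1 member rose (3.1%) and 12 fell (37.5%) in Sorb300, where 15.1% and 15.2% of all genes did. In RA 1 rose (3.1%) and 13 fell (40.6%) against ND, where 8.05% and 10.1% of all genes did. Members thus fell in both groups against their own references. Pfkp, the platelet phosphofructokinase, had 175, 213 and 211 CPM in Sorb300 and 26.2, 44.4 and 44.9 CPM in RA. Pkm2, pyruvate kinase, had 879.8, 1691 and 1456 CPM and 309, 417 and 369 CPM. Both enzymes were higher in Sorb300 without overlap (log2 differences 2.38 and 1.88, adjusted p = 2.37e-07 and 2.33e-06), like the hexokinases Hk1 and Hk2 (1.81 and 1.98). None of these 4 changed in Sorb300 against NS by the test, and Pfkp, Pkm2 and Hk1 fell in RA against ND (-2.12, -1.62 and -1.09). Txnip, an inhibitor of glucose uptake and of thioredoxin, had 53.7, 48.5 and 28.9 CPM in Sorb300 and 247, 355 and 1013 CPM in RA. It stood higher in RA in every library (log2 difference -3.61, SE 0.57, adjusted p = 1.15e-05), and RA library 3 was the highest of the 6. NS and ND held 721 to 1691 and 833 to 1247 CPM. Sorb300 fell against NS (log2 difference -4.67, SE 0.59, adjusted p = 1.50e-06), and RA was not called against ND (-0.97). P4ha2, a prolyl hydroxylase for collagen, had 93.8, 88.1 and 90.6 CPM in RA and 29, 26.9 and 42.7 CPM in Sorb300 (log2 difference -1.48, SE 0.29, adjusted p = 1.18e-04). P4ha1 was also higher in RA (-1.33), through a fall in Sorb300 against NS (-1.78). Vegfa, the endothelial growth factor, was higher in RA too (-1.60), and lost its call without RA library 1 or Sorb300 library 2 (adjusted p = 0.0729 and 0.0637).

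**Figure D4:**
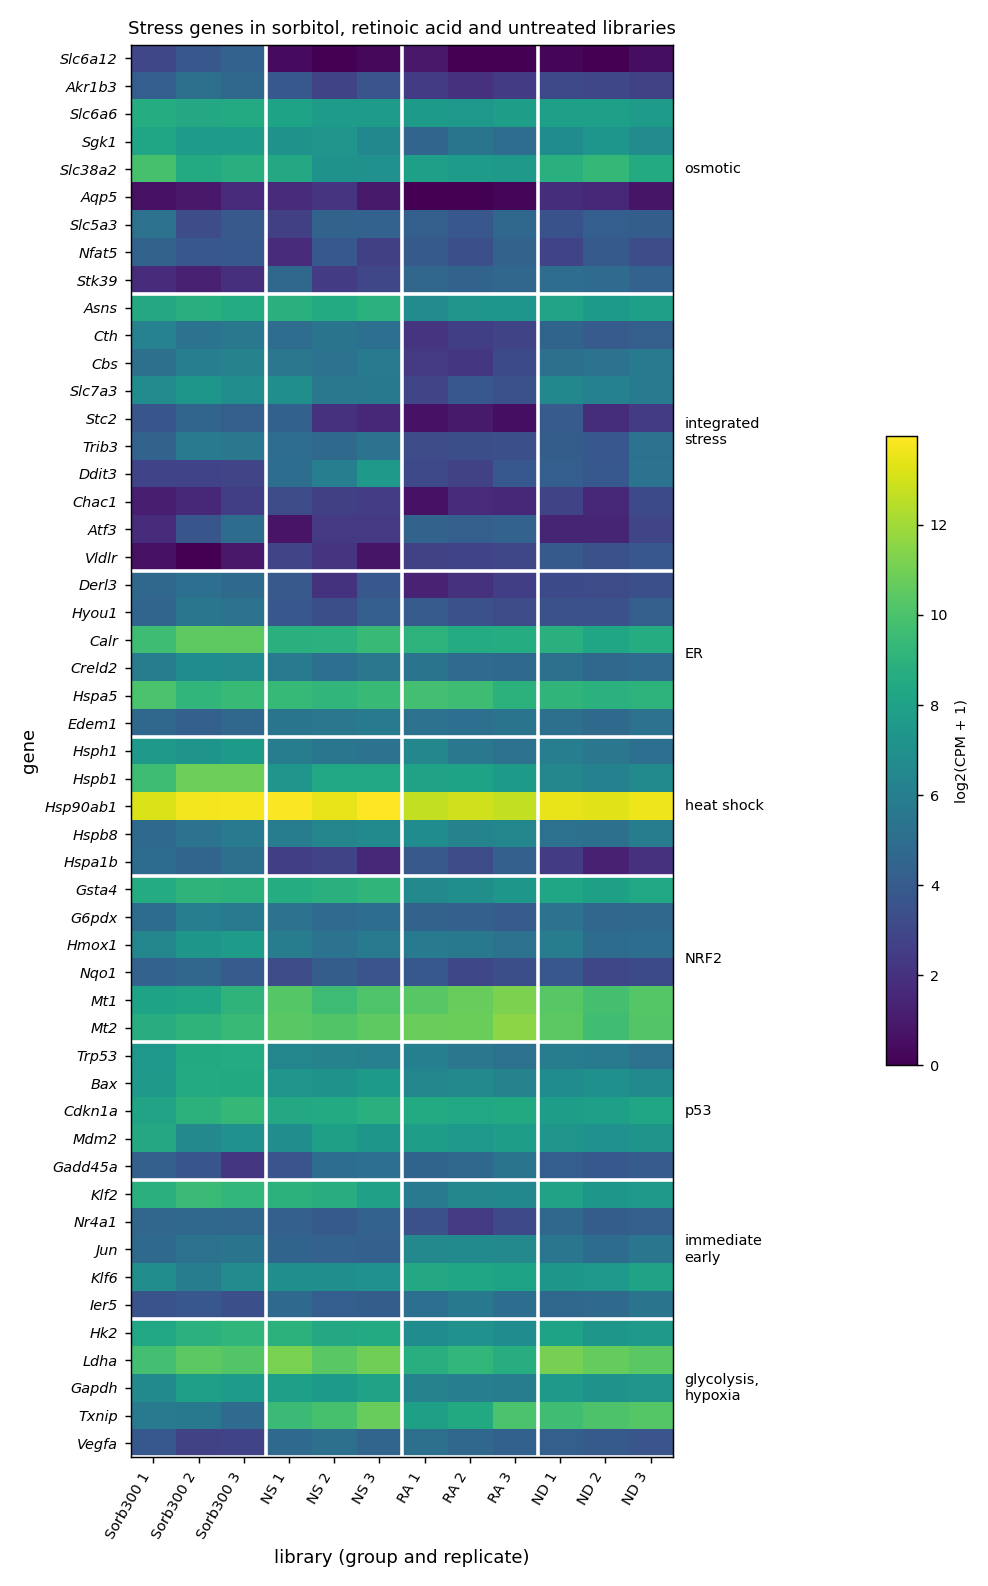
Level of stress genes as log2(CPM + 1) (colour) in each of the 12 libraries (x axis), genes grouped by list (y axis). Slc6a12, Hsph1, Hspb1 and Trp53 are brightest in the Sorb300 columns. Cth, Cbs and Slc7a3 are dark in the RA columns only, and Txnip is dark in the Sorb300 columns.

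Pluripotency genes were higher under sorbitol with LIF than under retinoic acid without it. Of 28 naive genes tested 20 were higher in Sorb300 (71.4%, against 20.6% of all genes), and 19 were called with library 1 alone. Of 18 core genes 13 were higher in Sorb300 (72.2%), and of 21 formative genes 12 were higher (57.1%) and 3 lower (14.3%). With the GC correction 20 naive and 11 core genes were higher in Sorb300 and 1 core gene, Fut4, higher in RA. Without the correction 0 members of both lists were higher in RA by edgeR or by DESeq2, and at an unadjusted p under 0.05 there were 0 naive and 1 core genes. The naive genes with the smallest p were Tdh, which makes threonine a fuel of mouse stem cells, Tcl1, Esrrb and Fgf4, with log2 differences of 4.69, 4.03, 3.46 and 3.23. Pou5f1, the core factor OCT4, had 19.9, 34.2 and 33.5 CPM in Sorb300 and 1.57, 3.29 and 1.6 CPM in RA. Pou5f1 was higher in Sorb300 (log2 difference 3.84, SE 0.41, adjusted p = 6.49e-09) and close to NS (-0.02, not called). Nanog had 405, 260.0 and 178 CPM and 55.1, 103 and 97.6 CPM (log2 difference 1.73, SE 0.30, adjusted p = 3.07e-05), and Sox2 1092, 1038 and 1001 CPM and 94.9, 264 and 163 CPM (log2 difference 2.59, SE 0.41, adjusted p = 8.25e-06). In all 3 factors Sorb300 was not called against NS, and RA fell against ND. Klf4, a naive factor downstream of LIF, had 426, 226 and 268 CPM in Sorb300 and 33, 44.7 and 34.6 CPM in RA (log2 difference 3.04, SE 0.33, adjusted p = 9.41e-09), and rose against NS (0.99). Gata3, Hand1 and Evx1 thus rose in Sorb300, while Pou5f1, Nanog and Sox2 were not called against NS (log2 differences from -0.59 to 0.40). Bulk RNA does not show whether the same cells held both. Over the naive list 11 members rose (39.3%) and 1 fell (3.57%) in Sorb300 against NS. Over the core list 6 rose (33.3%) and 3 fell (16.7%), where 15.1% and 15.2% of all genes did. The naive list summed to 6418 to 6968 CPM in Sorb300 and 4042 to 4746 CPM in NS. Of 20 LIF and STAT3 genes 7 were higher in Sorb300 (35.0%) and 1 in RA (5.0%), or 3 and 1 with the GC correction. Those higher in Sorb300 were also 3 without Sorb300 library 2 and 4 without RA library 1. Those higher in RA were 3 without Sorb300 library 1. Socs3, the feedback inhibitor of LIF signalling, had 165, 234 and 169 CPM in Sorb300 and 77.4, 69.7 and 158 CPM in RA (log2 difference 0.89, SE 0.35, adjusted p = 0.0452). Its call was lost with the GC correction (adjusted p = 0.549) and without RA library 1 or 2 or Sorb300 library 2 or 3 (adjusted p = 0.173, 0.191, 0.266 and 0.0857). It was lost under 11 of the 15 alternatives, also with DESeq2 size factors, upper-quartile scaling, either other filter, the compared libraries alone and library 1 alone (adjusted p from 0.054 to 0.511). In RA, without LIF, Socs3 rose against ND (log2 difference 1.82, SE 0.37, adjusted p = 5.58e-04).

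Retinoid response genes mark the RA group: 32 of 40 tested were higher in RA (80.0%) and 1 in Sorb300 (2.5%), and 28 were called higher in RA with Sorb300 library 1 alone. Rarb, the retinoic acid receptor that is itself a direct target, had 31.9, 13.2 and 21.4 CPM in RA and 1.1, 0 and 0 CPM in Sorb300. Cyp26a1, the hydroxylase that clears retinoic acid, had 87.3, 24.7 and 60.8 CPM in RA and 2.02, 0.485 and 1.38 CPM in Sorb300. No library overlapped (log2 differences -5.51 and -5.42, adjusted p = 2.90e-04 and 3.80e-06), and with library 1 alone only Cyp26a1 was called. Meis2 and Tshz1, homeobox and zinc finger partners of the Hox system, and Crabp2 and Dhrs3, which carry and metabolise retinoids, were among the members with the smallest p, with log2 differences from -6.96 to -3.35. The promoters of Rarb and Cyp26a1 both hold the response element of the DR5 type, a direct repeat with a spacer that binds retinoic acid receptors, and are shown for that reason. Matches on either strand are in capitals, at -53 to -37 from the start of Rarb (chr14:16575427-16575726, minus strand) and at -32 to -16 from that of Cyp26a1 (chr19:37697558-37697857, plus strand, match on the opposite strand), in RefSeq windows of GRCm38.p6.
Rarb: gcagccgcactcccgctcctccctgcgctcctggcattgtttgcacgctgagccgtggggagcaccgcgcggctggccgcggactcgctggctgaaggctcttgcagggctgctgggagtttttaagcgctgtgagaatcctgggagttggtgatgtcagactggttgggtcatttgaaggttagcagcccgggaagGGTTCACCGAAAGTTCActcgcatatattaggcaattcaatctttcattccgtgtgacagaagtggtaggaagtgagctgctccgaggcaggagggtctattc
Cyp26a1: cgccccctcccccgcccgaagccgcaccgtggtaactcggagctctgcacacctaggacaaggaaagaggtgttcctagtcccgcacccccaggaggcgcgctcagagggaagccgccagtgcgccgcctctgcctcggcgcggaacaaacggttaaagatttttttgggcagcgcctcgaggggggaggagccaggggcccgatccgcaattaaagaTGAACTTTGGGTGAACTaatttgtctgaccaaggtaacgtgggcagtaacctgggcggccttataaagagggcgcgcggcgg
These were 2 of 26 list members with a promoter window (7.69%), counted over any of their windows, and 0.0974% of 32851 promoters counted singly held a match. The exception of the list was Rarg, the receptor expressed in stem cells, with 302, 592 and 441 CPM in Sorb300 and 25.1, 35.5 and 33.7 CPM in RA. Rarg was higher in each Sorb300 library (log2 difference 3.83, SE 0.27, adjusted p = 1.04e-12), rose against NS (2.03) and fell against ND (-1.32).

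By size, the 10 largest differences toward Sorb300 among genes with at least 10 CPM were Evx1, Tgm3, Aoah, Itgb7, Mgat4c, Ms4a10, Msc, Ly6g6e, Snora7a and Mep1b, with log2 differences from 5.40 for Mep1b to 8.29 for Tgm3, and at least the fold given above for Evx1. Msc, a bHLH repressor of muscle genes, had 29.4, 58.6 and 42.3 CPM in Sorb300 and 1.26, 1.32 and 0.291 CPM in RA. It was also higher than NS (0.497 to 2.33 CPM), a rise of 5.13 on the log2 scale. Itgb7, an integrin chain of lymphocytes, had 17.5, 42.7 and 39.5 CPM in Sorb300 and 0.314, 0 and 0.291 CPM in RA (log2 difference 6.94, SE 0.74, adjusted p = 6.18e-09). It was not called against NS (0.95) and fell in RA against ND (-4.66). Snora7a is a small nucleolar RNA gene within a host gene, so its counts are uncertain. The DESeq2 Wald test did not call Mgat4c (adjusted p = 0.247). Toward RA they were Hoxb5, Ptn, Hoxb3, Hoxb1, Hoxa5, Dcn, Hoxb6, Hoxc8, Ttr and Tshz1, of which 6 are Hox genes. Hoxb5 had 57.5, 84.8 and 65.7 CPM in RA and no count in Sorb300, at least 259-fold higher against 3 counts over the group. Ptn, the growth factor pleiotrophin, had 49.6, 73.7 and 58.9 CPM in RA and no count in Sorb300, at least 227-fold higher. Hoxb5 and Hoxb6 were not called by the DESeq2 Wald test (adjusted p = 0.241 and 0.398).

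The difference of the effects, Sorb300 minus NS against RA minus ND, takes out what LIF did to untreated cells. It was called for 2210 genes (16.4%), 1202 toward Sorb300 (8.91%) and 1008 toward RA (7.47%), and under upper-quartile scaling the split turned to 921 and 1321, and with the GC correction to 990.0 and 1178. With Sorb300 library 1 alone 722 genes were called, and 3502 without library 1. The smallest p toward Sorb300 belonged to Utf1, Rarg, Fzd5, L3mbtl2, Tdh and Gdf3. Utf1, a chromatin factor of pluripotent cells, had 457, 1197 and 1049 CPM in Sorb300 and 42.7, 76.3 and 47.4 CPM in RA. Sorb300 rose against NS (0.83) and RA fell against ND (-3.45), and the effects differed (log2 difference 4.28, SE 0.40, adjusted p = 7.97e-09). Gdf3, a TGF-beta family ligand, had 181, 431 and 330.4 CPM in Sorb300 and 9.74, 15.8 and 9.31 CPM in RA (log2 difference 3.99, SE 0.48, adjusted p = 4.17e-07 between the effects). Toward RA, Pmp22, Mdk, Gpc3, Pbx3 and Col1a2 were among the genes with the smallest p. Mdk, the growth factor midkine, had 1393, 1540.1 and 2147 CPM in RA and 108, 147 and 113 CPM in Sorb300. It rose against ND (2.41) and fell against NS (-1.55), and the effects differed (log2 difference -3.97, SE 0.38, adjusted p = 7.97e-09). Pbx3, a homeobox partner of Hox proteins, had 44.3, 63.5 and 52.4 CPM in RA and 3.13, 3.63 and 3.22 CPM in Sorb300, and there the effect was the fall in Sorb300 (-3.37), with RA not called (0.34).

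**Figure D5:**
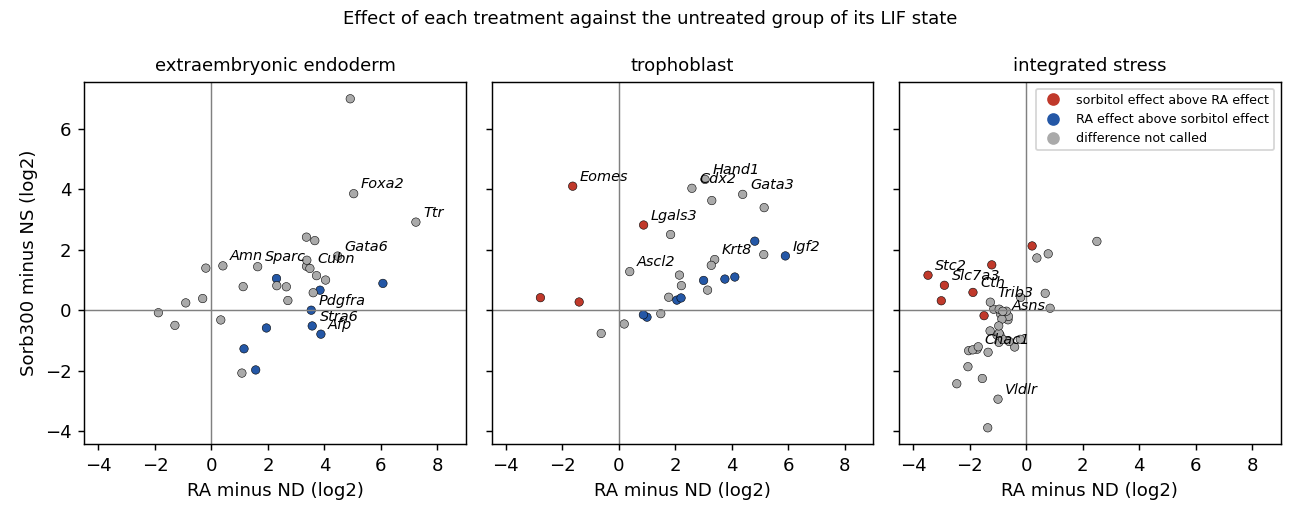
Log2 difference of Sorb300 minus NS (y axis) against RA minus ND (x axis) for each tested member of 3 lists, coloured by the test of the difference of the effects. Extraembryonic endoderm genes spread to the right, 9 of them called toward RA, trophoblast genes lie mostly in the upper right quadrant, and integrated stress genes lie mostly left of 0, with Atf3 at 2.50 among the exceptions and 7 called toward Sorb300.

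Some genes changed alike in both treatments, each against its own reference. In the counts 306 genes rose in both, 15.0% of the rises in Sorb300 and 28.2% of those in RA, and 503 fell in both, 24.4% and 36.9%. In opposite directions 102 genes rose in Sorb300 and fell in RA, and 99 the reverse. The genes with the largest shared rise were Snora5c, S100g, Igf2as and Dkk1. S100g, a calcium-binding protein of placenta and gut, had 12.3, 2.67 and 91.9 CPM in Sorb300 and 54.3, 78.9 and 31.7 CPM in RA. NS lay at 0 to 1.72 CPM and ND at 0.785 to 1.59 CPM, so that it rose in both (5.26 and 5.50), with a wide spread in Sorb300. Dkk1, a Wnt inhibitor, had 2.21, 2.67 and 5.97 CPM in Sorb300, 22.3, 21 and 9.45 CPM in RA and no count in NS. Sorb300 was at least 11.3-fold higher than NS against 3 counts over the group. The DESeq2 Wald test called Dkk1 in neither comparison (adjusted p = 0.0504 and 0.12). Igf2as is antisense to Igf2 and Snora5c lies within a host gene, so the counts of both are uncertain. The rise of Snora5c in RA was not called without any one of the ND libraries or without RA library 1 or 2, where adjusted p lay between 0.0536 and 0.0863. Syt4, Tmem154 and Myb were among the genes with the largest shared fall. Myb, a factor of progenitor cells, had 0.919, 0.969 and 0 CPM in Sorb300 and 0.942, 0.329 and 1.75 CPM in RA, against 4.23 to 21.9 CPM in NS and 33 to 41 CPM in ND. It fell in both (log2 differences -3.76 and -5.01, adjusted p = 5.42e-05 and 9.11e-08). The fall of Tmem154 in Sorb300 was not called without NS library 1 (adjusted p = 0.14), where it had its highest level.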

How the data were processed

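RNA was extracted with Trizol and sequenced as 3' libraries (Lexogen QuantSeq), per the labels' protocols. The submitters' processing notes name CASAVA 1.8.2, STAR, HTSeq, edgeR and the genome build mm9. The deposited values are the authors' whole-number read counts per gene symbol, not normalised, of 36 libraries in 12 groups of 3. Tables that repeat a library hold identical values. No source used here gives strand settings or molecular identifiers. Small nucleolar, antisense and near-identical genes are therefore uncertain, and bounds against a group at 0 (3 counts over the group) cover counting error only. Gene symbols are older ones (Pkm2, Mars, Foxf1a).

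From the deposited counts, genes were filtered by filterByExpr (13498 of 21516 kept), scaled by TMM and fitted with 12 group means in edgeR 4.0.16 (R 4.3.3, limma 3.58.1). The robust quasi-likelihood test gave all log2 differences, SEs and p-values, with Benjamini-Hochberg adjustment over all genes tested and a threshold of 0.05. The fit has 24 residual degrees of freedom and a biological coefficient of variation of 0.306. CPM are counts scaled to the TMM-adjusted library total. The 12-group fit was run on simulated counts of the same genes and libraries. All groups were given the same spread of each gene there, so that run checks the fit and not the calls reported here.

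The lists and the genes of interest were chosen with earlier results of these data known, so a list is described by its counts and median and is not tested. Genes named were, by rule, the 10 largest called differences in each direction with at least 10 CPM and no overlap, up to 5 members of each list and direction with the smallest p, the defining genes of each list whatever their p, the smallest p of the difference of effects, and the largest changes shared by both treatments. Slc6a12, Sparc, Gcm1, Tead4, Rarb, Cyp26a1 and Dcn, Lum, Postn, Myf5 and Ptprc were named after their values were seen.

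Alternatives were DESeq2 1.42.0 (size factors, Wald test), upper-quartile scaling, other filters, fits of the compared libraries alone, each library left out, and a replicate block. A correction for transcript GC content (known for 99.1% of genes tested) and Sorb300 library 1 alone were added after the libraries were seen. Same-numbered libraries of the compared groups did not deviate together (r from -0.39 to 0.21), so replicate numbers were not used to pair them. The other groups of the fit were not checked in this way. NS library 3 held 16.9% ribosomal protein counts, against 14.0% and 13.4% in NS libraries 1 and 2. Library 3 was also the highest in ND (14.5%, against 12.2% and 12.2%), in RA (9.59%, against 7.86% and 9.38%) and in the groups not compared here. In Sorb300 library 2 was the highest (9.65%). Whether replicate number marks a batch was not tested. Replicates differed by more than sampling noise. Promoter windows (250 bases before to 50 after the start) came from RefSeq, GRCm38.p6. GC content was that of the longest GENCODE transcript of each gene. Both were matched by symbol, and no coordinate of the build mm9 was used. A few genes that the naming rule picks are not reported here.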

Additional observations from a re-analysis of the deposited data

How the results depend on the processing

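The counts of calls moved most with the Sorb300 libraries. With library 1 as the only Sorb300 library 1746 genes were called between Sorb300 and RA (839 higher, 907 lower), 1352 between Sorb300 and NS (604 and 748) and 722 in the difference of effects (272 and 450), and list members called fell to 73 and 73. Leaving out 1 library at a time gave 3641 to 6122 genes for Sorb300 against RA (1819 to 3011 higher, 1822 to 3111 lower). It gave 2949 to 4922 for Sorb300 against NS (1400.0 to 2277 and 1500.0 to 2645), 1509 to 2005 for RA against ND (696 to 912 and 813 to 1093) and 1497 to 3502 for the difference of effects (694 to 1693 and 794 to 1809), and 125 to 158 list members higher and 96 to 119 lower. Fitted from the compared libraries alone, 2284 genes were called for Sorb300 against NS (1245 and 1039) and 4072 for RA against ND (2113 higher). Upper-quartile scaling shifted the median of all genes to -0.13, -0.11, 0.01 and -0.12 in the 4 comparisons and the higher share of the difference of effects from 54.4% to 41.1%. With a replicate block, though same-numbered libraries of the compared groups did not deviate together, 6071, 4983, 3294 and 3165 genes were called.

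Of 176 named genes called between Sorb300 and RA, 107 were called under all 15 alternatives and 142 under all but library 1 alone. The following genes, of which Hsf2 alone was called over all libraries, changed sign between Sorb300 and RA. With the GC correction they were Hsf2 (0.23), Cdkn1a (-0.059) and Mdm2 (0.021), and with library 1 alone Cdkn1a (-0.38), Mdm2 (0.65), Gata3 (-0.34) and Chac1 (-0.40). With no filter they were Nfat5 (-0.027) and Hspa5 (-0.011), and with upper-quartile scaling Nfat5 (-0.074), Hspa5 (-0.055) and Slc5a3 (-0.011). Leaving out 1 library at a time gave Mdm2 -0.88 to 0.12, Gata3 -0.16 to 0.35, Chac1 -0.063 to 1.04, Nfat5 -0.21 to 0.38, Hspa5 -0.21 to 0.25, Slc5a3 -0.74 to 0.39 and Atf3 -1.50 to 0.077. The cause was not tested. Sorb300 library 3 and RA library 2, the shallowest of the 6, limit what can be said of genes under about 1 CPM.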
